A study of Rattus norvegicus with 138 samples.

Results

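The 10 genes described here mark astrocytes and were followed through 3 autonomic regions of the brainstem in hypertensive and control rats. The members are Gfap, Aqp4, Slc1a2, Slc1a3, Gja1, Gjb6, Glul, Aldh1l1, S100b and Aldoc. They were listed by name as genes that astrocytes are known to express, by a rule that uses no measured value, though earlier results of these data were known when they were chosen. These 10 genes are 10 of the 32883 genes in each count table, and all 10 passed the filter on low counts in all 3 regions. RNA was sequenced from tissue punches of the nucleus of the solitary tract (NTS), the caudal ventrolateral medulla (CVLM) and the rostral ventrolateral medulla (RVLM). The study asked how gene expression in these regions differs between female spontaneously hypertensive rats (SHRs, strain SHR/NHsd) and normotensive female Wistar-Kyoto control rats (WKY rats, strain WKY/NHsd) while hypertension develops. There were 5 WKY rats and 5 SHRs at 8 wk of age, 4 and 5 at 10 wk, and 3 and 6 at each of 12, 16 and 24 wk. The labels give no treatment, and each of the 46 rats gave 1 library per region. The strains differ at many loci besides those that set blood pressure, which limits them as a model of hypertension alone.

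Astrocytes take up the glutamate and potassium that neurons release, move water at the blood vessel wall, and share small molecules with each other through gap junctions. In the brainstem they stand beside the neurons that set sympathetic outflow. The members cover these roles. Gfap encodes the intermediate filament of the astrocyte cytoskeleton, Aqp4 the water channel of their end feet, Slc1a3 (GLAST) and Slc1a2 (GLT-1) the glutamate transporters, and Glul the glutamine synthetase that turns glutamate into glutamine. Gja1 (connexin 43) and Gjb6 (connexin 30) form their gap junctions. Aldh1l1 encodes a folate enzyme, Aldoc a glycolytic aldolase, and S100b a calcium-binding protein that is also made by some oligodendrocytes.

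The deposited values are expected counts per gene, between 5904570 and 17889406 per library with a median of 10143018. Levels are given below as CPM, which are counts relative to the library total, with TMM scaling over all libraries of the 3 regions. They are not divided by gene length, so levels are compared between libraries and not between genes. Every member had counts in every library, and the lowest was 104 counts, for Slc1a2 and for Aldh1l1 in the NTS. The punches also held other cells. The 10 oligodendrocyte markers summed to between 19382 and 76693 CPM per library, the 12 neuron markers to between 6967 and 35969 CPM, and the 9 microglia markers to between 250 and 561 CPM. In such bulk tissue, fewer astrocytes and less RNA per astrocyte cannot be told apart. Choroid plexus markers, which belong to tissue beside the NTS, summed to 4441 CPM in the NTS library of WKY replicate 2 at 12 wk and to 1845 CPM in that of WKY replicate 5 at 8 wk, and 3 of 6 were called lower in SHRs in the NTS. Of 6 tested ependyma markers, 3 were also called lower in SHRs in the NTS (Ccdc153 -1.77, Dynlrb2 -0.80 and Enkur -0.41 in log2 fold change), where the markers of this list summed to between 13.9 and 101.0 CPM in WKY rats and between 6.31 and 42.9 CPM in SHRs, and Dynlrb2 was called in the RVLM (-0.74). The part of both lists in the results was not tested. The RVLM library of WKY replicate 3 at 8 wk stood apart, with a mean correlation of 0.918 with the other RVLM libraries where the next lowest was 0.939 and the median 0.964. In it, Gja1, Glul, Slc1a3 and Aqp4 were below and S100b and Aldoc above all 17 other WKY libraries of the RVLM. Each library name ends in 1 or 2, a number whose meaning is not given. The number 2 marks all libraries of 10 wk and otherwise 3 WKY rats at 8 wk and 1 SHR each at 12 and 24 wk.

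S100b was the member that separated the strains. In the NTS it ran from 2384 to 3728 CPM (median 2839) in the 18 WKY rats and from 1280.1 to 1833 CPM (median 1493) in the 28 SHRs. Every SHR library was below every WKY library. In the CVLM it ran from 1849 to 2753 CPM (median 2518) in WKY rats and from 905 to 1527 CPM (median 1141) in SHRs, and in the RVLM from 2542 to 4986 CPM (median 3047) in WKY rats and from 1000.1 to 2001 CPM (median 1379.8) in SHRs. The strains did not overlap in these regions either, and the RVLM library that stood apart held the highest value of all. Among all genes tested, the strains did not overlap over the 46 libraries for 0.747% (NTS), 0.798% (CVLM) and 0.716% (RVLM).

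**Figure D1:**
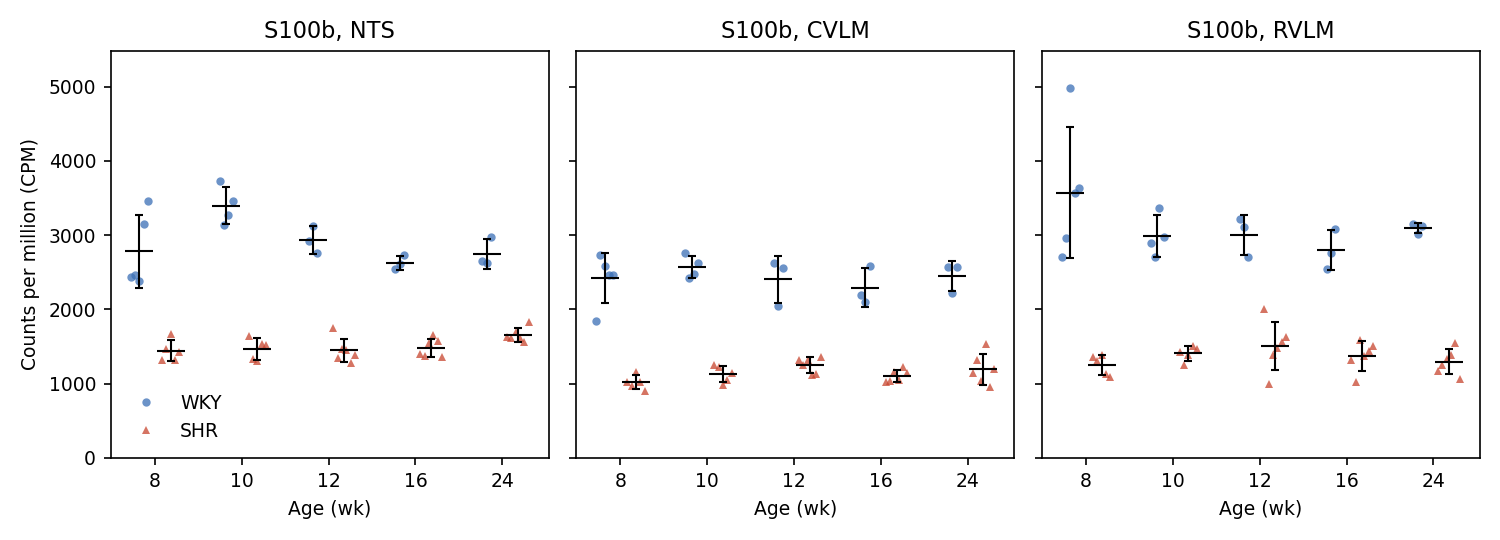
S100b in CPM (vertical axis) by age in weeks (horizontal axis), with 1 panel per region, circles for WKY rats and triangles for SHRs, and black bars for the mean and SD of each group. All 28 SHRs sit below all 18 WKY rats in each region, and the highest point is the RVLM library of WKY replicate 3 at 8 wk with 4986 CPM.

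Averaged over the 5 ages, the mean level of S100b in SHRs was 0.519-fold that of WKY rats in the NTS, 0.465-fold in the CVLM and 0.442-fold in the RVLM. The log2 fold changes of SHRs against WKY rats were -0.95 (SE 0.04, adjusted p = 4.65e-21), -1.11 (SE 0.05, adjusted p = 1.12e-21) and -1.18 (SE 0.06, adjusted p = 1.03e-18), by edgeR's quasi-likelihood test with Benjamini-Hochberg adjustment over all genes of a region. Gene calls below are at an adjusted p under 0.05 in this test. It called 11.2% (NTS), 12.3% (CVLM) and 10.8% (RVLM) of all genes. Without the library that stood apart, the log2 fold change in the RVLM was -1.15. S100b was also called at each single age in each region. Its log2 fold changes were -0.98, -1.17, -1.004, -0.84 and -0.74 in the order of ages in the NTS, with SEs between 0.09 and 0.10. In the CVLM they were -1.25, -1.18, -0.96, -1.05 and -1.07, and in the RVLM -1.52, -1.09, -0.99, -1.03 and -1.26. In the same order of ages, the test called 5.79%, 4.44%, 3.1%, 1.73% and 2.46% of all genes in the NTS, 7.64%, 3.18%, 2.62%, 2.27% and 7.13% in the CVLM, and 9.78%, 2.3%, 1.7%, 1.65% and 2.24% in the RVLM. The strains did not overlap for S100b at any of these ages. They did not overlap for 4.01%, 8.27%, 5.52%, 6.39% and 6.17% of all genes in the NTS, 4.49%, 6.53%, 5.27%, 5.8% and 11.7% in the CVLM, and 4.88%, 5.99%, 4.2%, 4.15% and 9.48% in the RVLM. Among genes tested in all regions, 53 of 13116 (0.404%) were called lower in SHRs at all 5 ages in all 3 regions, and S100b is among them. Averaged over ages, 764 of the 13116 genes (5.82%) were called in all 3 regions.

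Of the 15 differences at single ages, the largest was at 8 wk in the RVLM. There the 5 WKY rats had 2705, 2957, 4986, 3574 and 3634 CPM, and the 5 SHRs had 1354, 1310.5, 1379.6, 1125 and 1087 CPM. The lowest WKY rat was above the highest SHR. Without WKY replicate 3 the log2 fold change at this age was -1.38 in place of -1.52. A strain effect of S100b that changed with age was not called in edgeR, and its lowest unadjusted p was 0.0451, in the NTS (adjusted p = 0.403 in edgeR's F test). The strain effects in the NTS and RVLM differed by 0.23 on the log2 scale (SE 0.07, adjusted p = 0.0576 in the joint edgeR fit with rat as a block). This was not called there, but it was with limma voom and with scaling by total counts alone. Within a strain and region, the coefficient of variation of S100b was between 9.94% and 17.5%.

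S100b was also low relative to the other members in the same library. Its log2 CPM minus the mean log2 CPM of the other 9 members ran from 3.01 to 3.59 in WKY rats and from 1.94 to 2.83 in SHRs in the NTS, and from 2.76 to 3.39 against 1.75 to 2.53 in the CVLM. These ranges did not overlap. In the RVLM the ranges were 3.02 to 4.53 and 1.63 to 3.11, which overlap. Since oligodendrocytes can also contain S100b, the summed oligodendrocyte markers are given beside it. They ran from 19382 to 44291 CPM in WKY rats and from 20711 to 49583 CPM in SHRs in the NTS, from 40831 to 76693 against 40457 to 67956 CPM in the CVLM, and from 35970 to 69782 against 34302 to 55896 CPM in the RVLM. Those sums overlapped in every region. Of the 10 markers, 3 were called higher and 1 lower in SHRs in the NTS. In the CVLM 1 was called higher and 4 lower, and in the RVLM 3 were called lower. Mobp, a myelin protein gene, had log2 fold changes of -0.72, -0.99 and -0.94 in the NTS, CVLM and RVLM. Cldn11, of the same list, was called higher in the NTS (0.79) and CVLM (0.52), and had 0.32 without a call in the RVLM. The part of these markers in the S100b difference was not tested.

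S100b lies on chromosome 20. Of the 5 genes that precede and the 5 that follow it in the RefSeq order of the GRCr8 assembly, 5 were tested. Ybey, which encodes an endoribonuclease of mitochondrial ribosomal RNA and is the 4th gene on one side, was also lower in SHRs in each region, with log2 fold changes of -1.04, -1.01 and -1.0004 in the NTS, CVLM and RVLM (highest adjusted p = 2.27e-12, edgeR). Pcnt and Dip2a, which lie between Ybey and S100b, were not called, and neither were Mcm3ap and Prmt2. The log2 fold changes of these 4 genes were between -0.15 and 0.29.

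The 250 bases before the RefSeq start of S100b are shown as the stretch next to the start of the gene that differed most. Those of Gja1 and Gjb6 are shown as the connexin pair that differed in opposite directions between regions (below). They are reference sequences of GRCr8, and neither a WKY nor an SHR allele. S100b is on the minus strand (chr20:12381082-12381331), Gja1 on the plus strand (chr20:36302314-36302563) and Gjb6 on the minus strand (chr15:35410139-35410388), with 2 RefSeq starts listed for Gjb6, of which the first is shown. Capitals mark matches on either strand to 6 short motifs.
S100b: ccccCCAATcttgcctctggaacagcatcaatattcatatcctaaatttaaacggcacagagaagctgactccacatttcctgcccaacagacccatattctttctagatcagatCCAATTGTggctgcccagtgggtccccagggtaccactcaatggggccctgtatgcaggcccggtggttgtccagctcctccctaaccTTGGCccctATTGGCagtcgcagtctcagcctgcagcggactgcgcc
Gja1: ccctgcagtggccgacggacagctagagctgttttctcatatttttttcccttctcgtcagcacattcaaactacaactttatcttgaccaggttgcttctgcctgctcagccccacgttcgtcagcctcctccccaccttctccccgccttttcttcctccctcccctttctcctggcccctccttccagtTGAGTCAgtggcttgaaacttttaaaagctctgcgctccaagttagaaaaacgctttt
Gjb6: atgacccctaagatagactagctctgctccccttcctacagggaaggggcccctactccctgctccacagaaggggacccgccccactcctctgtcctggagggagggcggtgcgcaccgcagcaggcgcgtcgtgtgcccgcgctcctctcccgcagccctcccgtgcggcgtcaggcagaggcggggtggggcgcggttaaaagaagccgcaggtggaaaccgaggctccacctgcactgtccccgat
The motifs were the TATA box (TATAAA), the CCAAT box (CCAAT), AP-1 (TGANTCA), the NFI motif (TTGGC), a STAT site (TTCNNNGAA) and a SOX site (ACAAT). S100b had 3 matches to CCAAT, at 246, 135 and 38 bases before the start, 2 to the NFI motif and 1 to the SOX site. CCAAT matches overlap the SOX match and an NFI match. Such letters are frequent, since CCAAT was found in 34% of 33469 promoters of this length, the NFI motif in 40.3% and the SOX site in 30%. Gja1 had 1 match to the AP-1 motif, 58 bases before its start, a motif found in 6.34% of promoters, and Gjb6 had no match to the 6 motifs in this window. The TATA box was found in 12.9% and the STAT site in 7.67% of promoters. These matches are a description of the letters.

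Few calls were made for the other 9 members. Averaged over ages, the calls among the 10 members numbered 1 (NTS), 1 (CVLM) and 2 (RVLM), which are S100b in each region and Aldh1l1 in the RVLM. The median log2 fold change of the 10 members was -0.00 (NTS), -0.03 (CVLM) and -0.03 (RVLM), against 0.01, -0.00 and 0.01 over all genes tested. At single ages, 17 of 150 comparisons of a member in a region were called, of which S100b made up 15. The shares of all genes called are given with S100b above. Strains did not overlap at a single age in 15 comparisons for S100b, 3 for Slc1a2, 2 for Aldh1l1 and 1 for Aqp4, against the shares of all genes given above.

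**Figure D2:**
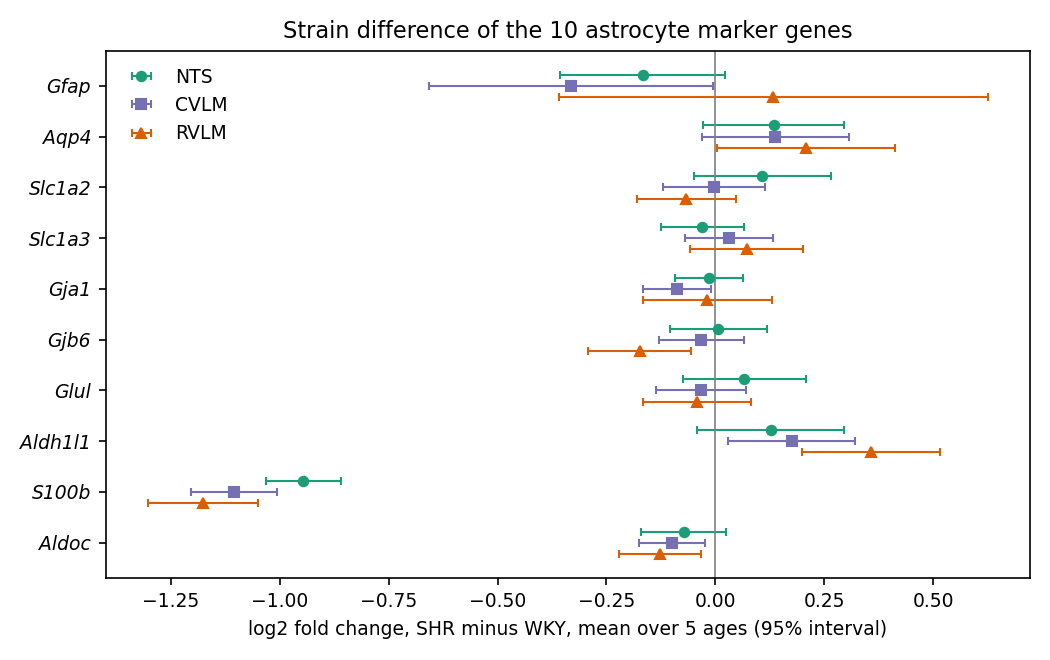
Log2 fold change of SHRs against WKY rats, averaged over 5 ages (horizontal axis), for the 10 genes (vertical axis) in the NTS (circles), CVLM (squares) and RVLM (triangles), with bars for 95% intervals. S100b lies near -1 in all regions, Aldh1l1 in the RVLM at 0.36, and within each region the interval of Gfap is the widest.

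Aldh1l1, whose enzyme oxidizes formyl tetrahydrofolate, was higher in SHRs in the RVLM. It ran from 14.9 to 27.7 CPM (median 20.03) in WKY rats and from 17.6 to 37.5 CPM (median 27.7) in SHRs, and 14 of the 28 SHRs were above all WKY rats. The log2 fold change averaged over ages was 0.36 (SE 0.08, adjusted p = 0.00151, edgeR). This call held without any one rat, with a highest adjusted p of 0.0054, and under each of the other settings tried. In the NTS and CVLM the log2 fold changes were 0.13 (SE 0.09) and 0.18 (SE 0.07), which were not called. At 24 wk in the CVLM the 3 WKY rats had 15.4, 14.5 and 19.1 CPM and the 6 SHRs 21.6 to 31.5 CPM, which do not overlap. The log2 fold change there was 0.54 (SE 0.18, adjusted p = 0.0516, edgeR), which was not called, and the adjusted p ran from 0.0341 to 0.15 over the other settings. The strain effects of the NTS and RVLM differed by -0.24 (SE 0.10, adjusted p = 0.303, joint edgeR fit), so a difference between the regions was not shown.

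At 8 wk in the RVLM, Aldh1l1 had 19.4, 16.7, 19.9, 19.7 and 21.1 CPM in the WKY rats and 26.1, 27.1, 29.5, 28.2 and 31.98 CPM in the SHRs. Slc1a2, the gene of the transporter that clears most synaptic glutamate, had 25.1, 22.2, 18.8, 19.6 and 22.03 CPM in the same WKY rats and 25.96, 31.8, 32.2, 29.1 and 26.8 CPM in the SHRs. All SHRs were above all WKY rats in both genes. The log2 fold changes were 0.55 (SE 0.17, adjusted p = 0.0305) for Aldh1l1 and 0.43 (SE 0.12, adjusted p = 0.0202) for Slc1a2, by edgeR, with 9.78% of all genes called at this age in this region. Both calls were lost without WKY replicate 3, the library that stood apart, with log2 fold changes of 0.55 and 0.37 and adjusted p = 0.0572 and 0.0756 (edgeR). The call of Aldh1l1 was also lost without WKY replicate 2 (0.0589) and SHR replicates 3 (0.0536) and 5 (0.076), and that of Slc1a2 without WKY replicate 4 (0.0508) and SHR replicates 2 (0.0597) and 3 (0.0531). In these fits the log2 fold changes were between 0.51 and 0.55 for Aldh1l1 and between 0.37 and 0.40 for Slc1a2. The number 2 was carried by 3 of the 5 WKY rats and none of the SHRs at this age. With the number as a term, the log2 fold change was 0.60 for Aldh1l1 and 0.30 for Slc1a2, and neither was called (adjusted p = 0.0958 and 0.262, edgeR). With this age fitted alone it was 0.56 and 0.44, also without a call (adjusted p = 0.0669 and 0.148, edgeR). Slc1a2 in the RVLM did not keep this direction, since at 12 wk all 6 SHRs (20.7 to 26.5 CPM) were below all 3 WKY rats (29.3 to 30.5 CPM), with a log2 fold change of -0.35 that was not called (adjusted p = 0.325, edgeR). At 24 wk the SHRs (20.2 to 27.7 CPM) were again below the WKY rats (27.8 to 31.6 CPM), with -0.22 and no call (adjusted p = 0.41, edgeR). A change of the Slc1a2 strain effect with age in the RVLM had an unadjusted p of 0.000437 in edgeR's F test, but its adjusted p was 0.751.

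**Figure D3:**
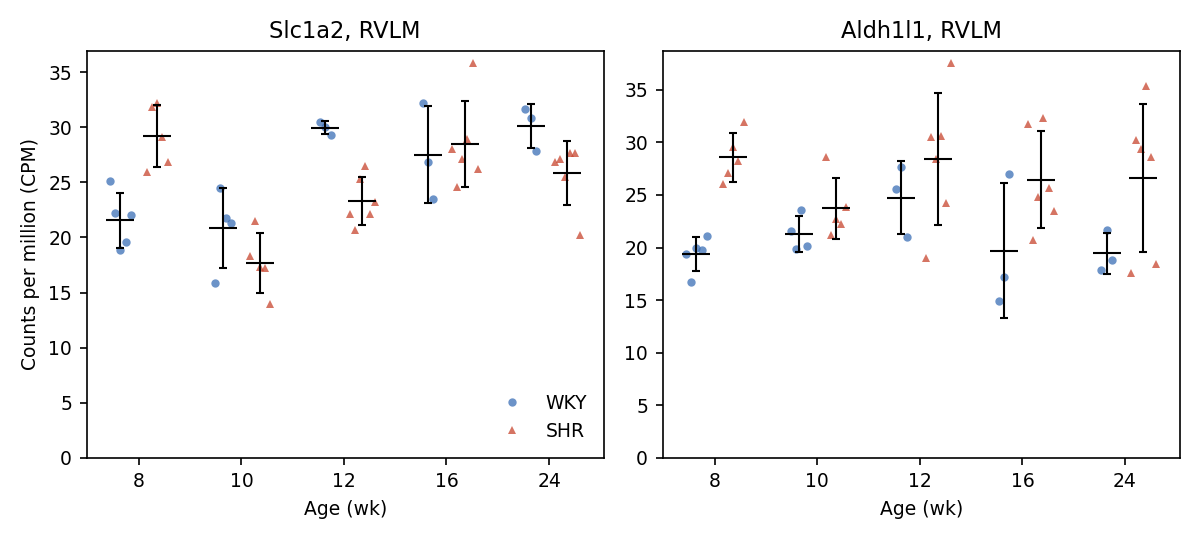
Slc1a2 and Aldh1l1 in the RVLM in CPM (vertical axis) by age in weeks (horizontal axis), with circles for WKY rats, triangles for SHRs and black bars for the mean and SD of each group. At 8 wk all SHRs are above all WKY rats for both genes, and at 12 wk all SHRs are below all WKY rats for Slc1a2.

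Among the remaining members, Aldoc, the brain form of fructose bisphosphate aldolase, had log2 fold changes of -0.07, -0.10 and -0.13 in the NTS, CVLM and RVLM. It was below 0 in 14 of 15 comparisons at single ages, and was not called (adjusted p = 0.451, 0.0885 and 0.0921, edgeR). Gjb6 in the RVLM had a log2 fold change of -0.17 (SE 0.06, adjusted p = 0.0571, edgeR), which DESeq2 called (-0.18, adjusted p = 0.0415). It was called in edgeR in 10 of 46 fits that left out 1 rat, with an adjusted p between 0.0222 and 0.127. Aqp4 was above 0 in 14 of 15 single comparisons, with averages of 0.13, 0.14 and 0.21 and none called. Gja1, Slc1a3 and Glul had averages between -0.09 and 0.07 in all regions, with 95% intervals inside -0.17 and 0.21. Gfap could be compared least well. At single ages its log2 fold changes ran from -0.81 (CVLM at 12 wk, SE 0.38) to 1.02 (RVLM at 8 wk, SE 0.52), with no call in edgeR. Averaged over ages they were -0.17, -0.33 and 0.13, with an interval in the RVLM from -0.36 to 0.63, a range that includes the difference seen for Aldh1l1.

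The wider astrocyte lists are read against the 11.2% (NTS), 12.3% (CVLM) and 10.8% (RVLM) of all genes called. Of 11 tested genes of astrocyte identity and development, 2 were higher and 2 lower in SHRs in the NTS, and 1 was lower in the CVLM and in the RVLM. Cldn10, a claudin of the astrocyte membrane, was lower in each region, with log2 fold changes of -0.20, -0.44 and -0.40. Mlc1, a membrane protein of the perivascular end feet, was higher in the NTS with 0.32 (SE 0.04, adjusted p = 7.12e-08, edgeR). Among the genes of ion and water handling, Dtna, a dystrobrevin of the membrane complex that holds water channels at the end feet, was lower in the CVLM with -0.19 (SE 0.05, adjusted p = 0.00462, edgeR). Of 11 genes of the glutamate, glutamine and GABA cycle, 1 was higher and 2 lower in the NTS, 1 was lower in the CVLM and 1 higher in the RVLM, with Grm3, a glutamate receptor, at 0.31 in the NTS and 0.24 in the RVLM.

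Of 13 genes of astrocyte metabolism and lipid handling, 1 was higher and 1 lower in SHRs in the NTS, and 3 and 4 were lower in the CVLM and RVLM. Ppp1r3c, which targets a phosphatase to glycogen, was lower by a log2 fold change of -0.25, -0.28 and -0.27. Aldh1a1, a retinal dehydrogenase, was higher in the NTS (0.67) and lower in the CVLM (-0.17) and RVLM (-0.38). Of the reactive astrocyte genes tested (12 in the NTS and 11 in each of the others), C3, the complement component, was higher in SHRs in all regions (1.02, 1.045 and 1.19), while Stat3, a transcription factor of the cytokine response, was lower in all (-0.47, -0.58 and -0.48). Cp, of the same list, was called lower in the NTS alone (-0.33), and no other gene of this list was called. Gfap itself was not called. The other connexins included Gjb1, an oligodendrocyte connexin, which was lower in the CVLM (-0.26) and RVLM (-0.23). Gjb2 was also called lower in the CVLM (-0.23), while Gjc1 was called higher in the NTS (0.38). The median of each of these lists was within 0.16 of 0 in every region.

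Nearly all members differed between regions. Regions were compared within rats in 1 fit over all libraries with rat as a block. Of the 10 members, 8 were called for the NTS against the RVLM, where 72.7% of all genes were called. The NTS and CVLM gave 8 (65.9% of all genes), and the pair of ventrolateral regions gave 9 (54%). Such calls are common among all genes, so the directions and sizes follow. Scaling by total counts alone moved the median of all genes by 0.18 on the log2 scale for the NTS against the RVLM, by 0.15 for the NTS against the CVLM and by 0.04 for the CVLM against the RVLM, so the differences below are relative to the median gene. No member had a strain effect that was called different between regions in edgeR. Of the 30 values, 5 had an unadjusted p under 0.05, and limma voom called 1, which was S100b between the NTS and RVLM. Of all genes, 1.82% were called in edgeR for the NTS against the RVLM, 0.449% for the NTS against the CVLM and 0.32% for the CVLM against the RVLM.

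**Figure D4:**
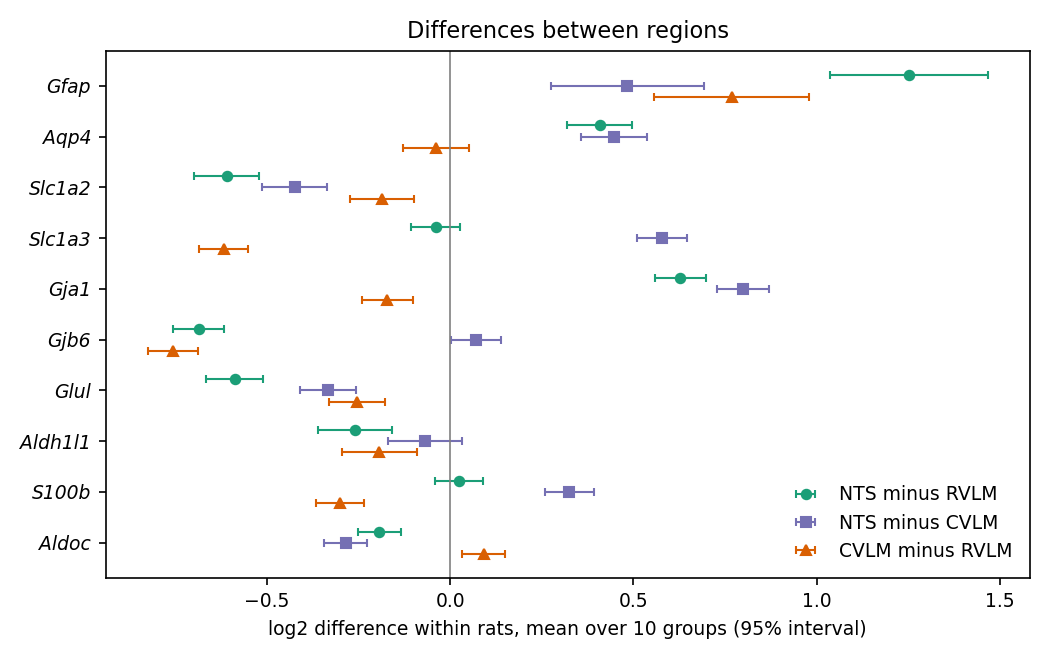
Log2 difference between regions within rats (horizontal axis) for the 10 genes (vertical axis), for the NTS minus the RVLM (circles), the NTS minus the CVLM (squares) and the CVLM minus the RVLM (triangles), with bars for 95% intervals. Gfap, Aqp4 and Gja1 lie to the right for both NTS comparisons, and Slc1a2, Glul and Aldoc to the left.

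Gfap fell along the order NTS, CVLM and RVLM. Over both strains it ran from 369 to 910.1 CPM (median 559) in the NTS, from 197 to 1060.4 CPM (median 361) in the CVLM and from 91.9 to 835 CPM (median 232) in the RVLM. The ranges overlapped widely, and the coefficient of variation rose from 24.8% to 47.8% and 63.2%. The log2 difference was 1.25 between the NTS and RVLM (SE 0.11, adjusted p = 3.85e-17), 0.48 between the NTS and CVLM (SE 0.11, adjusted p = 5.78e-05) and 0.77 between the CVLM and RVLM (SE 0.11, adjusted p = 4.37e-09), in edgeR. In 42 of 46 rats the NTS punch exceeded the RVLM punch in Gfap. Aqp4, the water channel, was also highest in the NTS, by 0.41 over the RVLM and 0.45 over the CVLM, in 42 and 44 of 46 rats. Aqp4 in the CVLM and RVLM differed by -0.04 (adjusted p = 0.496, edgeR).

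The connexins took opposite directions. Gja1 ran from 280.4 to 415 CPM (median 352) in the NTS, from 166 to 244 CPM (median 203) in the CVLM and from 87.04 to 294 CPM (median 222) in the RVLM. No CVLM library reached the lowest NTS library, and in all 46 rats the NTS was higher than both other regions. Gjb6 ran from 95.2 to 176 CPM (median 127) in the NTS, from 96.01 to 155 CPM (median 122) in the CVLM and from 126 to 288 CPM (median 206) in the RVLM. Here it was the RVLM that was highest in every one of the 46 rats. The log2 difference between the NTS and RVLM was 0.63 for Gja1 (SE 0.04) and -0.69 for Gjb6 (SE 0.04), with adjusted p = 1.13e-27 and 1.76e-30 in edgeR. Within a library, log2 CPM of Gjb6 minus that of Gja1 had a median of -1.44 (NTS), -0.68 (CVLM) and -0.15 (RVLM). The highest of these, 1.59 in the RVLM, belongs to the library that stood apart.

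**Figure D5:**
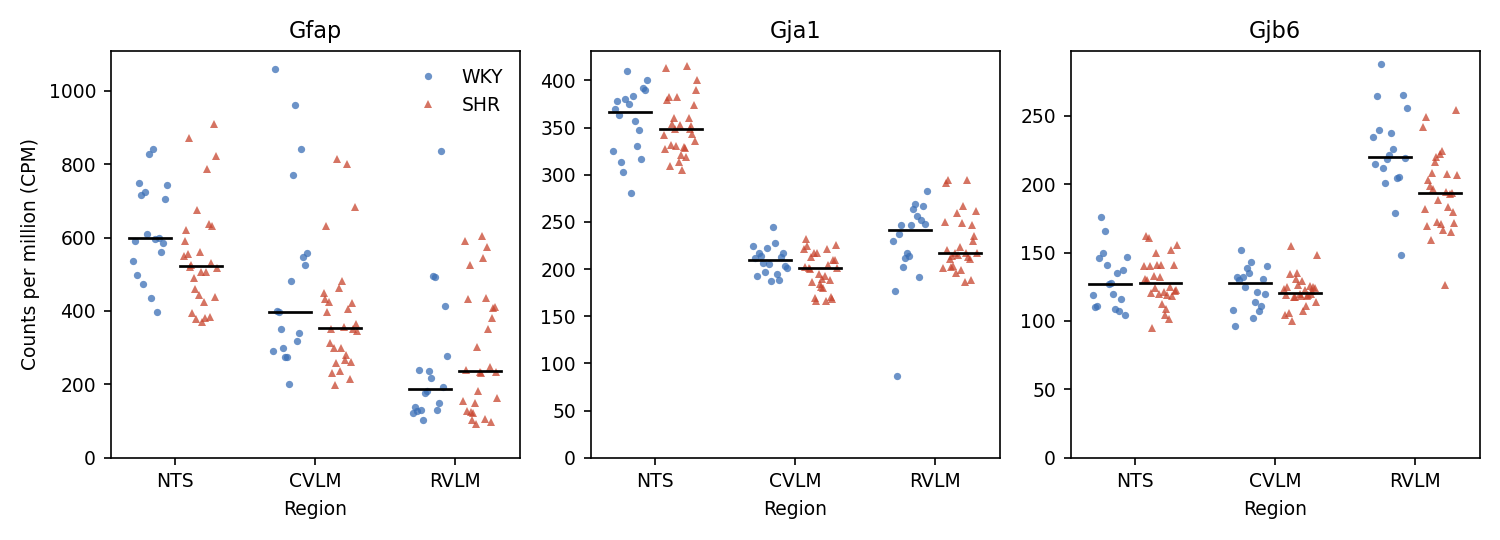
Gfap, Gja1 and Gjb6 in CPM (vertical axes, 1 panel per gene) in the 3 regions (horizontal axes), with circles for WKY rats, triangles for SHRs and black lines for the median of each strain. Gja1 is highest in the NTS and Gjb6 in the RVLM, while Gfap spreads from 91.9 to 835 CPM in the RVLM alone.

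The glutamate genes also differed from each other. Slc1a3, the GLAST transporter, had a median of 544 CPM in the NTS, 381 CPM in the CVLM and 574 CPM in the RVLM. It was lower in the CVLM than in the NTS in all 46 rats (log2 difference 0.58, SE 0.03) and lower than in the RVLM in 45 of 46 (-0.62, SE 0.03). Between the NTS and RVLM it was -0.04 (adjusted p = 0.304, edgeR), which became 0.15 and was called with total-count scaling. Slc1a2 instead rose from the NTS (median 17.2 CPM) over the CVLM (22.4 CPM) to the RVLM (25.7 CPM), with log2 differences of -0.61, -0.42 and -0.19 for the NTS minus the RVLM, the NTS minus the CVLM and the CVLM minus the RVLM, all called. Glul followed the same order, with medians of 1759 CPM, 2189 CPM and 2603 CPM and log2 differences of -0.59, -0.33 and -0.25, also called. Log2 CPM of Slc1a3 minus that of Slc1a2 had medians of 4.97, 3.99 and 4.46 in the NTS, CVLM and RVLM.

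Of the metabolic members, Aldoc was lowest in the NTS (median 3319 CPM) and higher in the CVLM (4092 CPM) in all 46 rats. Its log2 difference was -0.28 for the NTS minus the CVLM, -0.19 for the NTS minus the RVLM and 0.09 for the CVLM minus the RVLM, all called, of which the one between the NTS and RVLM was lost with total-count scaling (-0.01). Over both strains, Aldh1l1 was higher in the RVLM than in the NTS by 0.26 and than in the CVLM by 0.19. The first of these was also lost with total-count scaling (-0.08). Within SHRs alone, the NTS minus the RVLM was -0.38 and the CVLM minus the RVLM -0.28, both called. Within WKY rats alone they were -0.14 and -0.11, and neither was called (adjusted p = 0.128 and 0.313, edgeR). A difference between the strains was not called for either pair. Over both strains, S100b was not called between the NTS and RVLM (0.03, SE 0.03, adjusted p = 0.511 in edgeR), though with total-count scaling it was called at 0.21. Within SHRs alone it was higher in the NTS by 0.14 (SE 0.04, adjusted p = 0.00261, edgeR). Within WKY rats alone the NTS minus the RVLM was -0.09 (SE 0.05, adjusted p = 0.137, edgeR), which was not called. Over both strains, S100b was lower in the CVLM than in the NTS and RVLM, by 0.33 and 0.30. All 30 within-rat mean differences kept their sign without the rat whose RVLM library stood apart, and moved by at most 0.03.

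The other lists are read against the 72.7% of all genes called between the NTS and RVLM, 65.9% between the NTS and CVLM and 54% for the ventrolateral pair. Of 11 tested genes of astrocyte identity and development, 7 were higher in the NTS than in the CVLM, and 1 was higher and 8 lower in the CVLM than in the RVLM. In edgeR, 9 of the 11 had adjusted p values under 0.05 between the NTS and RVLM, 4 higher and 5 lower in the NTS. Ndrg2, a gene of the hydrolase fold family, had a log2 difference of 0.55 for the NTS minus the CVLM, and Slc39a12, a zinc transporter, was lower in the CVLM than in the RVLM by -0.59. Of the genes for ion and water handling, 5 of 8 were lower in the CVLM than in the RVLM, and against the NTS 3 were higher and 4 lower in the CVLM. Kcnj10, the inward rectifier potassium channel, was at -0.59 for the CVLM minus the RVLM. Markers of other cells moved with region too. All 10 oligodendrocyte markers were lower in the NTS than in either other region, all 9 microglia markers were higher there, and 6 of 7 ependyma markers were higher there than in the RVLM, with a median log2 difference of 4.43. Neuron markers differed by a median of -0.39 between the NTS and RVLM, with 2 higher and 8 lower of 12. Single markers ran from -2.71 to 1.46. Their summed CPM had medians of 9052 in WKY rats and 8815 in SHRs in the NTS, against 29252.5 and 25185 in the RVLM. The part of the cell makeup of the punches in the region differences of the members was not tested.

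Age effects called among the members could not be told apart from the number in the library name. Of 30 tests of age in WKY rats, 4 were called, where the share of all genes called was 12.5% (NTS), 22.2% (CVLM) and 6.79% (RVLM). Of 30 tests in SHRs, 2 were called, against 18.7%, 20% and 14.1% of all genes. The calls were Aqp4 in the NTS, Glul and Slc1a2 in the CVLM and Slc1a2 in the RVLM in WKY rats, and Slc1a2 in the CVLM and RVLM in SHRs. Those of Aqp4 and Glul were near the threshold, with adjusted p = 0.0495 and 0.0472 in edgeR's F test. With 1 rat left out at a time, they were made in 9 and 18 of 46 fits, and those of Slc1a2 in 41 to 46. Slc1a2 had its lowest mean at 10 wk in both strains and all regions. In the RVLM of SHRs it was 29.2 ± 2.83 CPM at 8 wk (SD, n = 5), 17.7 ± 2.72 at 10 wk (n = 5), 23.3 ± 2.18 at 12 wk, 28.5 ± 3.91 at 16 wk and 25.8 ± 2.87 at 24 wk (n = 6 each), with an adjusted p of 0.00102 in edgeR's F test. Aqp4 in the NTS of WKY rats had instead its highest mean at 10 wk, 925 ± 146 CPM (n = 4), and its lowest at 16 wk, 557 ± 62.05 CPM (n = 3).

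All libraries of 10 wk carry the number 2. With this number as a term in the fit, no member was called for age in either strain in edgeR, with 0 of 30 at an unadjusted p under 0.05 in WKY rats and 3 of 30 in SHRs. The share of all genes called then fell to 0.0435%, 0.403% and 0.0447% in WKY rats and 0.5%, 0.679% and 0.194% in SHRs in the NTS, CVLM and RVLM. Between 24 wk and 8 wk, no member was called in either strain in edgeR, with 4 and 3 of 30 at an unadjusted p under 0.05 in WKY rats and SHRs, while DESeq2 called 2 and 0. Of all genes, 0.464%, 13.7% and 0.179% were called in WKY rats and 0.232%, 0.649% and 0.358% in SHRs. The strain effect did not change with age in any of 30 tests at an adjusted p under 0.05, where 3 had an unadjusted p under 0.05 in edgeR and 3 in DESeq2, which also called 0. Of all genes, 0.0145%, 0.0224% and 0.00746% were called in the NTS, CVLM and RVLM.

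Within groups of strain and age, members did not vary as a block. Correlations between 2 members over the 46 libraries of a region, after the group means were subtracted, had medians of 0.19, 0.11 and 0.13 in the NTS, CVLM and RVLM over 45 pairs. The highest were those of Aqp4 with Slc1a3 (0.83 in the CVLM, 0.80 in the RVLM) and of Slc1a3 with Gja1 (0.82 in the RVLM), and Gfap with Aldh1l1 reached 0.75 in the RVLM. The lowest was that of Slc1a2 with S100b in the NTS, -0.49. S100b with Aldoc had 0.39, 0.66 and 0.66 in the NTS, CVLM and RVLM, and with Gjb6 0.56, 0.42 and 0.54. The RVLM values include the library that stood apart. With the mean of the 10 standardized members, which contains each of them, Aldh1l1 (median over regions 0.71), Slc1a3 (0.70) and Aqp4 (0.69) correlated most and Slc1a2 (0.21) and Aldoc (0.23) least. Among other genes, Sparcl1, a matrix glycoprotein of astrocytes, was most like this mean (0.84), followed by Acsbg1, a fatty acid activating enzyme of the brain (0.82), and by Suclg2, Ndrg2, Retsat, Mlc1, Appl2, Abhd4, Pttg1ip and Cyp4v3 (0.74 to 0.69). Libraries share depth and punch, so these correlations are given as a description.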

How the data were processed

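The authors punched the regions, sequenced the RNA and, by their methods, mapped reads to the rat genome rn6 with STAR in RSEM. The deposited expected counts per gene are not normalized, with 1 table per region. The methods name ComBat_seq for batches, and whether it was applied to these tables is not stated. Reads of both strains were mapped to 1 reference. Strandedness of the counting is not given in the sources used here. In 2 CVLM libraries the labelled age is 10 wk and the title gives 8 wk, and they were placed at 8 wk.

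Counts were rounded, and genes with a largest rlog value of at least 3.5 were kept (13793 in the NTS, 13408 in the CVLM, 13411 in the RVLM, and 14043 in at least 1 region for the joint fit). A model of the 10 groups per region, and 1 over all libraries with rat as a block, were fitted with TMM in edgeR 4.0.16 (quasi-likelihood, robust), in R 4.3.3, with Benjamini-Hochberg adjustment. Alternatives used DESeq2 1.42.0 and limma 3.58.1. The fits were tested on simulated data. Correlations used log2(CPM + 1). The members and lists were chosen with earlier results of these data known. All members are named, from each other list at most 4 called genes with the smallest adjusted p, and the 10 genes most correlated with the members. Totals limit precision by counting error only for genes with few counts. The strain result of 1 listed gene of ion and water handling is not reported here.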

Additional observations from a re-analysis of the deposited data

Results flagged for a closer look

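In 14 of 210 groups of a member, region, strain and age, 1 library lay far from the others of its group, where chance gives about 1 in 20 groups. The WKY groups of 12, 16 and 24 wk, with 3 rats each, are not among the groups examined. Gfap accounts for 6 of them. In the NTS, SHR replicate 5 at 8 wk had 869.8 CPM (others 549.6 to 620.8). In the CVLM, WKY replicate 2 at 8 wk had 1060.4 CPM (others 290.6 to 399.9), SHR replicate 3 at 8 wk 631 CPM (398 to 448) and SHR replicate 4 at 16 wk 800.1 CPM (216 to 404). In the RVLM, WKY replicate 4 at 8 wk had 239 CPM (others 122 to 138.1) and SHR replicate 1 at 10 wk 526 CPM (104 to 148).

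Aqp4 had 1074 CPM in the NTS of SHR replicate 6 at 24 wk (others 650 to 794) and 985 CPM in the RVLM of SHR replicate 6 at 12 wk (291 to 543). The same 24 wk rat had Slc1a2 at 20.2 CPM in the RVLM (others 25.5 to 27.7) and Gjb6 at 148 CPM in the CVLM (114 to 125). Both rats have libraries named with 2 in groups otherwise named with 1, and the part of this number was not tested. Slc1a3 had 768 CPM in the RVLM of SHR replicate 4 at 16 wk (others 470 to 566), and Aldh1l1 had 31.4 CPM in the CVLM of SHR replicate 2 at 12 wk (17.9 to 22.6). Aldoc had 5777 CPM in the RVLM of WKY replicate 3 at 8 wk (others 3636 to 4027), the library that stood apart, and 3342 CPM in the RVLM of SHR replicate 2 at 16 wk (3947 to 4167).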

How the results depend on the processing

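S100b kept its direction and its call in each region and at each age under every alternative, and its log2 fold change averaged over ages stayed between -0.96 and -0.91 in the NTS, -1.13 and -1.07 in the CVLM and -1.22 and -1.12 in the RVLM. Without the libraries named with 2 outside 10 wk, 2 members in place of 1 were called in the NTS averaged over ages, the other being Aqp4. For age in WKY rats (4 calls), 2 members were called with no filter on low counts and 0 with the number in the library name as a term. DESeq2 made 6 calls for age in WKY rats, and S100b in the NTS was among them. S100b was also called there with total counts and without the libraries named with 2 outside 10 wk. For age in SHRs (2 calls), 4 were called with total counts, 4 with the replicate block, 5 without the libraries named with 2 outside 10 wk and 0 with the number as a term. For a strain effect that differs between regions (0 calls), 1 was called with total counts and 1 with limma voom. The causes were not tested. No called value reversed.

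With 1 rat left out at a time, the members called for strain averaged over ages ran from 1 to 1 (NTS), from 1 to 2 (CVLM, 2 without WKY 12 wk replicate 2 or WKY 24 wk replicate 2) and from 2 to 4 (RVLM, 4 without SHR 12 wk replicate 1), those at single ages from 15 to 18, those for age from 1 to 5 in WKY rats and from 1 to 3 in SHRs, and those for a strain effect that changes with age from 0 to 0. The WKY age count was 1 without WKY 10 wk replicates 3 or 4, WKY 16 wk replicate 1 or WKY 24 wk replicate 3, and 2 without 1 of SHR 10 wk replicates 2, 3 or 5, SHR 12 wk replicates 3 or 4, SHR 16 wk replicates 3, 5 or 6, SHR 24 wk replicates 3 or 4, SHR 8 wk replicates 3, 4 or 5, WKY 10 wk replicate 1, WKY 12 wk replicate 3, WKY 8 wk replicates 3 or 4. The SHR age count was 1 without SHR 10 wk replicate 4. WKY rats and SHRs share only replicate numbers: the correlation of their deviations ran from -0.397 to 0.599 (median 0.174) and was over 0.1 in 33 of 54 pairs. The replicate block changed no call of S100b, and with it Gjb6 in the RVLM was called averaged over ages (log2 fold change -0.24, adjusted p = 0.0403, edgeR), which makes 3 members in place of 2. The single-age calls of Aldh1l1 and Slc1a2 at 8 wk in the RVLM were lost with each age fitted alone, with the number as a term and without the libraries named with 2 outside 10 wk. That of Aldh1l1 was also lost with no filter (adjusted p = 0.0529) and with the replicate block (adjusted p = 0.0537), both in edgeR. Fitting each age alone gives no value averaged over ages. The spread between rats limits what could be shown for Gfap.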
